A study of Homo sapiens with 8 samples.

Results

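Genes that drive prostate cancer, or that work with the androgen receptor, were examined for RNA recovered with METTL3 in the prostate cancer cell lines LNCaP and PC3. The set holds 34 genes, chosen by name with earlier results of these data known, out of 19974 protein-coding genes on chromosomes 1 to 22 and X. A peak was counted for a gene when it lay whole within the gene's span on GRCh38. By this rule 12 peaks of the 2616 listed for LNCaP belonged to these genes, and 8 peaks of the 1033 listed for PC3.

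RNA immunoprecipitation and sequencing (RIP-seq) pulls down a protein and sequences the RNA that comes with it. Each line was sampled as METTL3 IP and as input in 2 replicates, which makes 8 samples in 4 groups. LNCaP was grown in medium with 20% fetal bovine serum and PC3 in medium with 10%, so line and serum cannot be told apart. Of each lysate, 80% went to the METTL3 antibody, 10% was kept as input and 10% met rabbit IgG, which was not analysed here. Neither line carried a treatment or an engineered allele in the labels. The deposited result is 1 peak list per line without values per sample, so no error between replicates can be given, the depth is unknown and no test between the lines was made. The fold, p and FDR of a peak are the authors' own, and the fold is read as IP over input from the design. The lists give no RNA level, so a transcript that is scarce in a line cannot be told apart from one that is present and not recovered.

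METTL3 is the catalytic subunit of the enzyme that places N6-methyladenosine on messenger RNA, a mark known to lie near stop codons and in long internal exons and to affect splicing, decay and translation. The androgen receptor is a hormone-bound transcription factor. It works with pioneer factors such as FOXA1, recruits the NCOA coactivators and Mediator, and is held back by corepressors built on NCOR1. LNCaP responds to androgen, whereas PC3 grows without it.

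In LNCaP, 7 of the 34 genes (20.6%) held a peak, namely CDH1, FOLH1, FOXP1, GRHL2, NCOR1, TMPRSS2 and ZFHX3, while 5.62% of all protein-coding genes did. In PC3, 2 of the 34 (5.88%) held a peak, NCOR1 and ZFHX3, while 1.83% of all protein-coding genes did. Both PC3 genes were among the LNCaP genes, so 5 genes were listed for LNCaP alone and 0 for PC3 alone. Of all protein-coding genes, at most 5.62% can be in LNCaP alone and at most 1.83% in PC3 alone. At such a share, 0 of 34 for PC3 alone is no result. A peak in both lists was present on 1.16% of protein-coding genes. Both shares stood above their background, but the PC3 share rests on 2 genes. Since the genes were chosen with earlier results of these data known, the excess is a description and no test of enrichment.

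Long genes held peaks more often throughout, and many of the 34 are long, with a median span of 102160 bp. Of the 17 genes at or above that median, 4 (23.5%) held a peak in LNCaP, against 13.3% of protein-coding genes of that length. In PC3 the count was 2 of 17 (11.8%), against 4.21%. Of the 17 shorter genes, 3 (17.6%) had a LNCaP peak (TMPRSS2, FOLH1 and CDH1), against 4.1% of protein-coding genes under that length. None of these 17 had a PC3 peak, against a background of 1.36%, at which a count of 0 of 17 is no result.

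**Figure D1:**
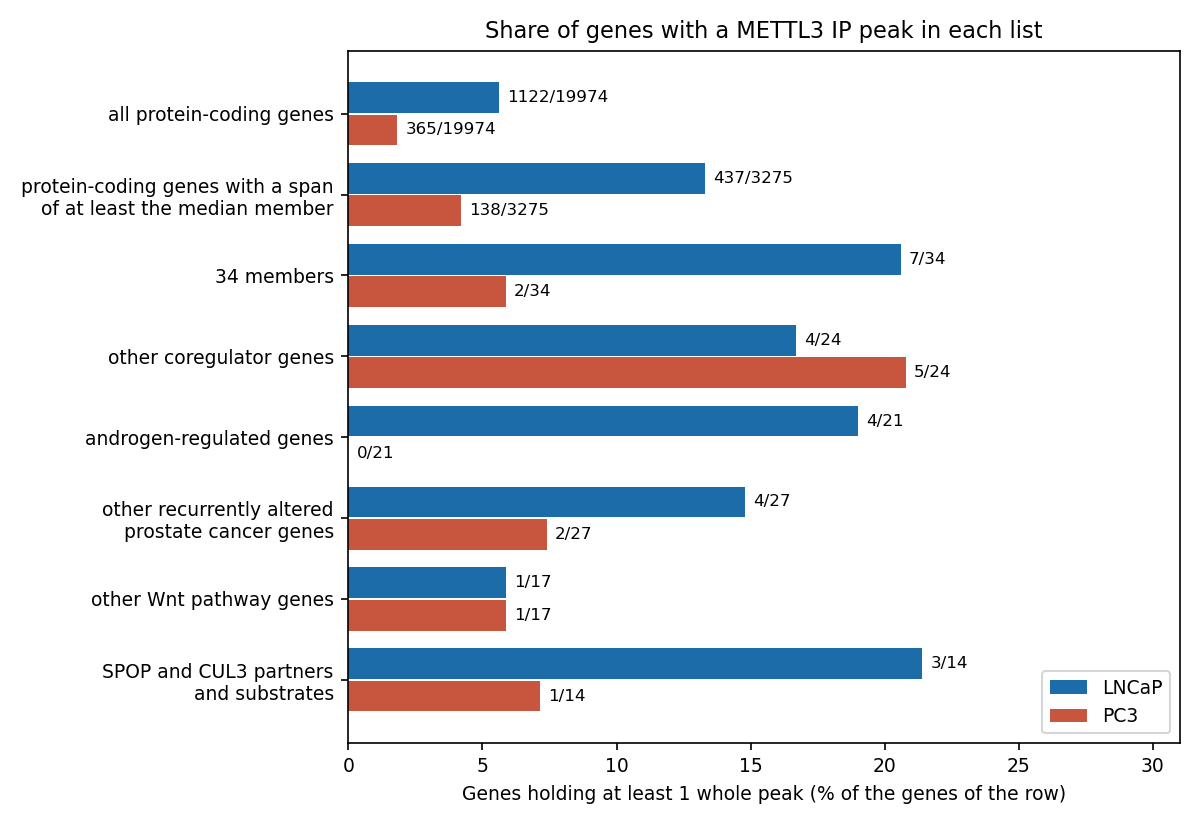
Bars give the percentage of genes that hold at least 1 whole METTL3 IP peak in LNCaP (blue) and PC3 (red), for all protein-coding genes, for those with a span of at least 102160 bp, for the 34 genes and for 5 further gene lists, with the counts beside each bar. The 34 genes stand at 20.6% in LNCaP and 5.88% in PC3, and all protein-coding genes at 5.62% and 1.83%. The androgen-regulated list has 0 of 21 genes in PC3, which is no result at a background of 1.83%.

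The lists end at different p-values, and this touches 8 of the 12 LNCaP peaks and 3 of the 7 LNCaP genes. LNCaP peaks reached up to a p of 0.0178, whereas PC3 peaks stopped at 1.59e-05. At or under 1.59e-05, the LNCaP count was 4 of 34 (11.8%) against a background of 1.33%, with FOLH1, FOXP1, GRHL2 and NCOR1 left. FOXP1 passed this limit narrowly, with a p of 1.57e-05. Among genes of at least 102160 bp, 3 of 17 (17.6%) then had a LNCaP peak against 3.02%. At equal p, NCOR1 alone was left in both lists, ZFHX3 in PC3 alone, and FOLH1, FOXP1 and GRHL2 in LNCaP alone. CDH1, TMPRSS2 and ZFHX3 had no LNCaP peak as strong as the weakest peak of the PC3 list. For CDH1 and TMPRSS2, and at the places of the LNCaP peaks on ZFHX3, the lines therefore cannot be compared from these lists.

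Of the 5 lineage transcription factors, FOXP1 and GRHL2 held peaks, both in LNCaP only. Beside shares of 5.62% in LNCaP and 1.83% in PC3 over all protein-coding genes, 0 of 5 in PC3 is no result. Both genes were left at or under the PC3 limit of p, where the LNCaP background was 1.33%. FOXP1, a forkhead repressor, had 1 peak (chromosome 3, 71359168 to 71493524, minus strand). The authors gave it a fold of 3.88 and an FDR of 0.000106. At 134357 bp it was the longest peak on any of the 34 genes and number 69 of the 2616 LNCaP peaks by length. Lengths here are genomic spans from start to end, and which bases inside a span were enriched was not examined. The promoter table lists 6 start sites for FOXP1, on the minus strand as the peak. Only 2 of them, at 71543557 and 71583728, lie upstream of the peak, and none lies inside it. The other 4 are downstream, so transcripts that begin there do not cover the peak.

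GRHL2, a grainyhead factor that maintains epithelial genes, had 2 LNCaP peaks on the plus strand of chromosome 8. The first was 126 bp long (101558611 to 101558736), and its fold was 6.54 (FDR 0.000476). The second was 12616 bp long (101619617 to 101632232), with a lower fold of 4.54 and a smaller FDR of 3.82e-05. They were 60881 bp apart, at 35.1% and 70.7% of the span. FOXA1, HOXB13 and ERG held no peak in either list. FOXA1, the pioneer factor, had its nearest LNCaP peak 27.1 kb away, within TTC6 on the plus strand, while FOXA1 is on the minus strand.

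Among the 5 androgen-regulated or prostate surface genes, FOLH1 and TMPRSS2 held a peak in LNCaP and none of the 5 held one in PC3. Over all protein-coding genes the shares were 5.62% in LNCaP and 1.83% in PC3, at which 0 of 5 in PC3 is no result. Only FOLH1 was left at or under the PC3 limit of p. FOLH1 encodes prostate-specific membrane antigen. Its peak (chromosome 11, 49157959 to 49169217, minus strand, 11259 bp) had a p of 2.10e-09 and an FDR of 5.46e-08. By p it was number 100 of 2616, the strongest LNCaP peak on the 34 genes, although its fold of 3.80 was higher than only 10.7% of the list. FOLH1 is therefore the LNCaP-only gene whose p lay farthest under the PC3 limit. Its near-identical copy FOLH1B, on the same chromosome, held no peak in either list, and no source used here says how reads common to both copies were assigned.

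TMPRSS2, an androgen-induced surface protease, had the weakest evidence of the 7 genes. Its LNCaP peak of 3181 bp (chromosome 21, 41473428 to 41476608) was number 2536 of 2616 by p, and only 1.49% of the list had a lower fold than its 3.29. KLK2 and KLK3, the kallikreins used as prostate markers, and STEAP2, a metalloreductase, held no peak in either list. The LNCaP peak nearest to KLK3 was 553 kb away and that nearest to KLK2 572 kb.

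NCOR1, the scaffold of the nuclear receptor corepressor complex, was the one gene of the 34 with peaks of both lists at the same place (2.94%, against 1.04% of protein-coding genes). A long peak began at chromosome 17, 16121132, on the minus strand in both lists and ended at 16139060 in LNCaP and 16139110 in PC3. The ends differed by 50 bp, and the LNCaP peak lay entirely within the PC3 peak. The fold was 5.57 in LNCaP and 7.26 in PC3. The p was 3.31e-07 in LNCaP, number 204 of 2616, and 3.43e-25 in PC3, number 89 of 1033. This was the only peak of the 34 genes in PC3 with a p under the median of that list. Its midpoint lay at 45.8% of the span in both lines. The peak contains RNU6-862P, a 105 bp snRNA pseudogene that fills 0.586% of its genomic span in LNCaP.

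The other NCOR1 peaks differed between the lists. LNCaP had 1 more peak (16075603 to 16079964, 4362 bp), whose fold was 4.68 (FDR 0.00736). PC3 had none there, and its nearest peak was 13797 bp away. The LNCaP peak had a p of 0.00606, and the PC3 list holds no p above 1.59e-05, so the lines cannot be compared at this place. PC3 had 2 peaks of 151 bp each, from 16061456 to 16061606 and from 16061656 to 16061806. These had the highest NCOR1 folds, 10.2 and 11.5, and lay at 82.6% and 82.5% of the span. The remaining PC3 peak (16117971 to 16121057) had a fold of 5.87 and ended at a coordinate 75 bp below the start of the shared one. Every NCOR1 peak was on the strand of the gene. The 4 NCOR1 pseudogenes of the table, NCOR1P1 to NCOR1P4, held no peak.

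The other 5 coregulators held no peak in either list. They are TBL1XR1, which joins NCOR1 in the corepressor complex, the p160 coactivators NCOA1, NCOA2 and NCOA3, and the Mediator subunit MED12. NCOA3 lies beside a group of PC3 peaks. The nearest began 1.24 kb beyond its span, at chromosome 20, 47658111 to 47663126, on the minus strand, and had a fold of 4.40 (FDR 3.76e-13). This peak lay within SULF2, which is transcribed from the minus strand, whereas NCOA3 is on the plus strand. Another of the group (47678655 to 47684435) is listed on the plus strand, as NCOA3, and also lay within SULF2. It was 21.8 kb from NCOA3 and had a fold of 5.69 (FDR 2.39e-10). The other PC3 peaks within 30 kb were on the minus strand. All lay outside the span of NCOA3 and were not counted for it.

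ZFHX3, a zinc finger homeobox factor and tumour suppressor in prostate, was the other gene with peaks in both lists, but not at the same place. PC3 had 4 short peaks on the minus strand of chromosome 16, all between 72795190 and 72798240, a stretch of 3051 bp. From the gene's 3′ end inwards their folds were 24.0, 11.7, 14.8 and 19.1, and their lengths 251, 51, 126 and 101 bp. Each had a higher fold than at least 90.5% of the PC3 list, and the highest was number 7 of 1033. Their p-values were less prominent and ran from 2.49e-08 to 8.23e-06, which placed these peaks between number 596 and number 1022.

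The 2 LNCaP peaks on ZFHX3 were as short, 76 bp at 72889737 to 72889812 and 126 bp at 72957579 to 72957704. Their folds were 8.01 and 4.25 and their FDRs 0.00296 and 0.00378. They lay 91.5 and 159 kb from the nearest PC3 peak. Their p-values of 0.00154 and 0.00225 were above the largest of the PC3 list, 1.59e-05, so the lines cannot be compared at these 2 places. The fold of 8.01 and its p are also listed, exactly the same, for another LNCaP peak that is not on ZFHX3. How many reads this fold rests on is likewise unknown. All 6 peaks were on the strand of the gene and downstream of all 4 listed start sites, the nearest at 73048128. The antisense transcript gene ZFHX3-AS1 (72665133 to 72821654) covers the 4 PC3 peaks and neither LNCaP peak. It is on the plus strand and the peaks are listed on the minus strand.

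**Figure D2:**
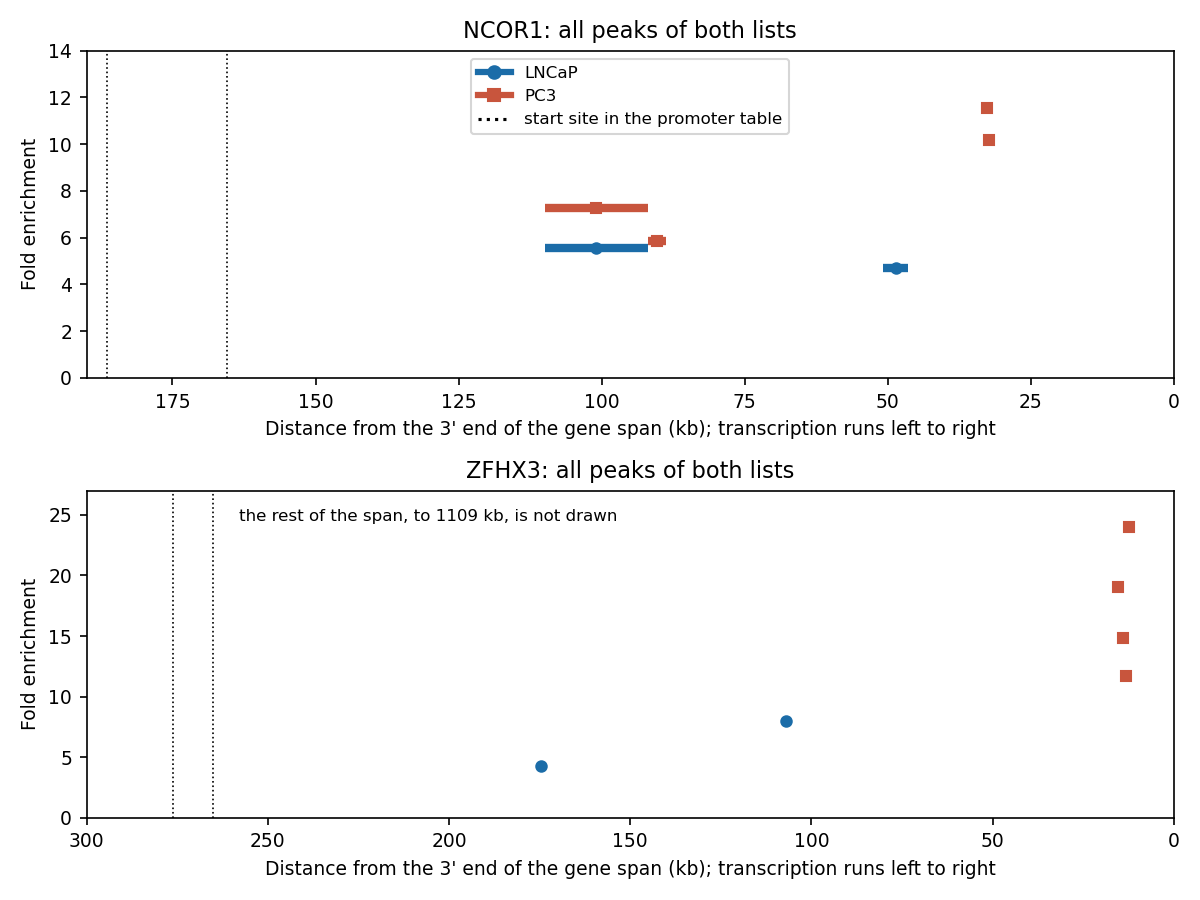
Each peak on NCOR1 (top) and ZFHX3 (bottom) is drawn at its distance in kb from the 3′ end of the gene span against its fold enrichment on a linear axis, with a bar for its length, LNCaP as blue circles and PC3 as red squares. The long NCOR1 peak is drawn in both lists at the same place, with folds of 5.57 and 7.26, while on ZFHX3 the 4 PC3 peaks lie within 3051 bp near the 3′ end and the 2 LNCaP peaks lie elsewhere.

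The remaining tumour suppressors and oncogenes held no peak in either list. They are MYC, a growth-promoting transcription factor, its antagonist MGA, the cell-cycle brake RB1, the kinase BRAF, the metabolic enzyme IDH1 and the zinc finger protein ZMYM3. CDK12, a transcription kinase, EZH2, the histone methyltransferase of Polycomb, and KDM6A, a histone demethylase, also held none. The same was true of SPOP and CUL3, the adaptor and scaffold of a ubiquitin ligase.

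CDH1, which encodes the epithelial adhesion protein E-cadherin, held 3 LNCaP peaks on the plus strand of chromosome 16 and was the one gene with a peak among the 6 of adhesion and Wnt signalling. The strongest by p ran from 68822210 to 68823433 (1224 bp), at a fold of 4.14 (FDR 0.000408). FTLP14, a pseudogene of ferritin light chain, lies inside it from 68822449 to 68823232. It covers 64.1% of the genomic span of the peak, which need not be its share of the enriched bases. Across the whole LNCaP list, only 14 peaks (0.535%) were covered to 50% or more by a pseudogene, and across the PC3 list 0 were. Of 47 FTL and FTH1 pseudogenes, only 1 overlapped a LNCaP peak and 0 a PC3 peak, and FTL and FTH1 themselves held no peak. Whether reads of ferritin transcripts were placed here was not tested. The second CDH1 peak, 76 bp long with a fold of 3.78, began 25 bp after the first. The third, of 51 bp (68829656 to 68829706), lay 6123 bp further on, clear of any other annotated gene. Its fold of 10.9 was the highest of the LNCaP peaks on the 34 genes, with an FDR of 0.00323. Exactly the same fold and p are listed for another LNCaP peak, which is not on the 34 genes. The list gives no read counts, so how many reads this fold rests on is unknown.

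The Wnt pathway genes of the set held no peak in either list. They are CTNNB1, which encodes beta-catenin, APC and AXIN1, which act in its destruction, and RNF43 and ZNRF3, which remove Wnt receptors from the surface. No gene of the 34 shared even 1 bp with a peak that it did not hold whole.

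Fold and p ranked these peaks differently in the 2 lines. The median fold of the 12 LNCaP peaks was 4.39 (binomial interval of the median 3.80 to 6.54, over peaks), against 5.26 for the whole list. Such an interval takes peaks as independent, but the 12 come from 7 genes, so its coverage is nominal only. At or under the PC3 limit of p, the 4 peaks left had a median of 4.21, against 7.74 for the 389 LNCaP peaks left in all. As listed, 4 of the 12 were above the list median in fold, while 7 of 12 had a p under the list median. The 8 PC3 peaks had a median fold of 11.6 (5.87 to 24.0), against 5.74, and 8 of 8 were above the list median in fold but 1 of 8 had a p under the list median. The PC3 values come from 2 genes, with a median fold of 17.0 on ZFHX3 and 8.72 on NCOR1. On the same genes the LNCaP medians were 6.13 and 5.13. Folds were made separately for each list and were not tested against each other.

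**Figure D3:**
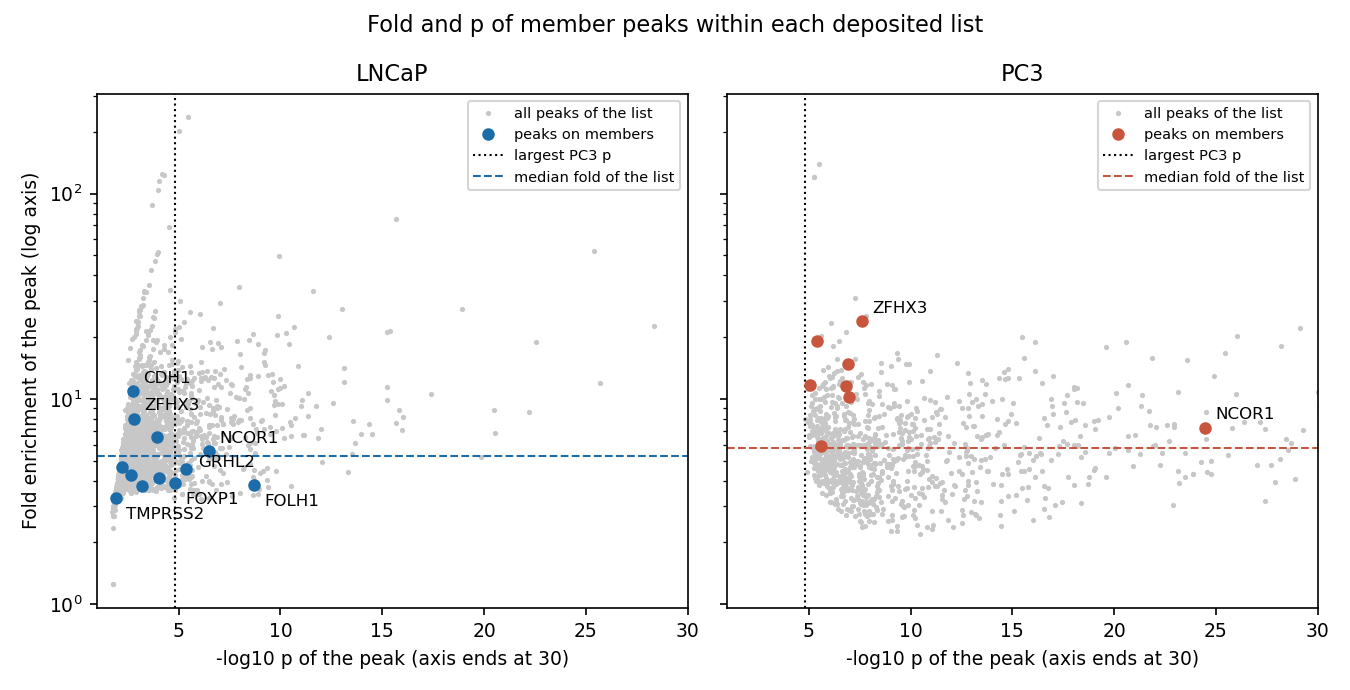
Each point is a peak, with the negative log10 of its p on the horizontal axis and its fold on a logarithmic vertical axis, for LNCaP (left) and PC3 (right). Coloured points are the 12 and 8 peaks on the 34 genes, grey points all other peaks, the dashed line the median fold of the list and the dotted line the largest PC3 p. The axis ends at 30, which leaves out 2 LNCaP and 62 PC3 peaks, none of them on the 34 genes; 8 of the 12 LNCaP points lie left of the dotted line and all 8 PC3 points lie above the dashed one.

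As listed, most of the peaks lay in the last of 3 equal parts of the gene span, read along the strand on which the peak is listed. There lay 9 of the 12 in LNCaP and 6 of the 8 in PC3, against 45.6% and 56.3% of all peaks within protein-coding genes. Peaks of 1 gene share a transcript, and the counts follow a few genes. In LNCaP 3 of the 9 were on CDH1, and in PC3 4 of the 6 were on ZFHX3. With 1 peak per gene, the one of smallest p, the counts were 5 of 7 in LNCaP and 1 of 2 in PC3. At or under the PC3 limit of p, 2 of 4 LNCaP peaks lay in the last part. FOXP1 held the one peak in the first part, centred at 25.05% of the span. The span includes introns, and for ZFHX3 it reaches back 1109 kb to a single distant start site. Measured from the nearest start site upstream, the LNCaP peaks of ZFHX3 were at 59.7% and 34.1% rather than 90.4% and 84.2%, and the 4 PC3 peaks stayed between 94.2% and 95.3%. A strand was listed for 26 of the 34 genes, which include FOXP1, NCOR1 and ZFHX3. On these, 5 of 5 LNCaP and 8 of 8 PC3 peaks were on the strand of the gene, against 96.5% and 96.6% of all such peaks.

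**Figure D4:**
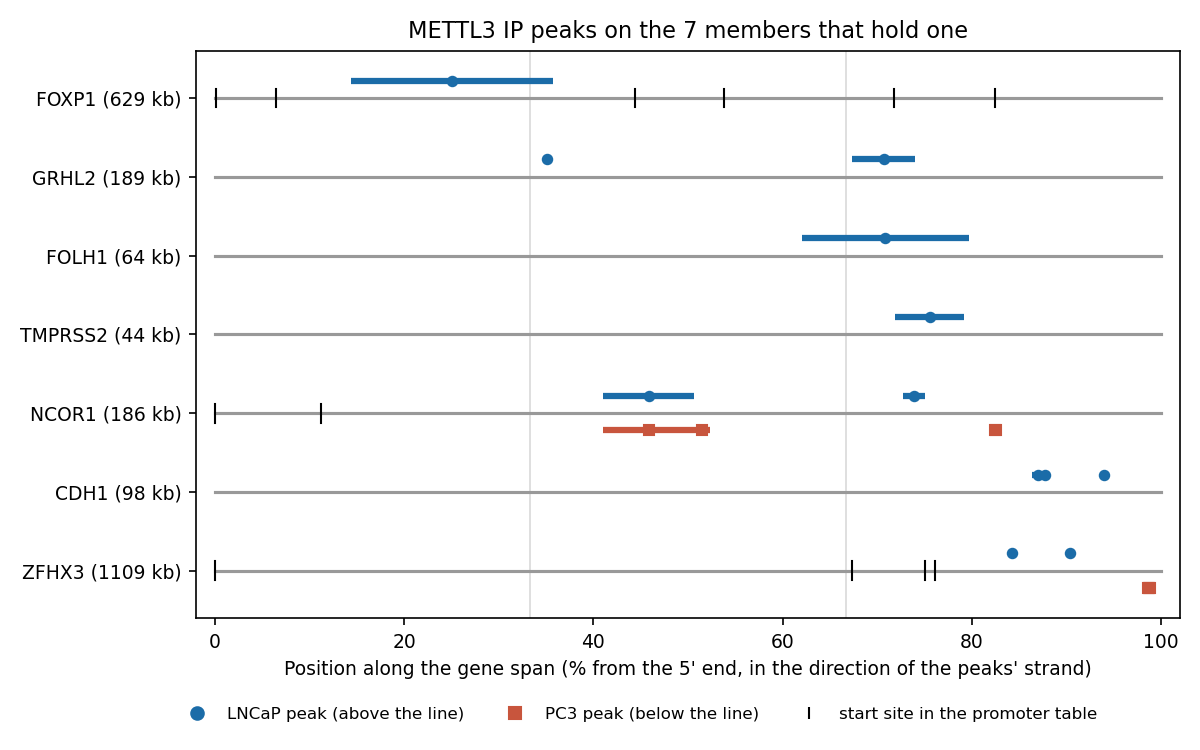
The span of each of the 7 genes with a peak is drawn as a grey line from its 5′ end (0%) to its 3′ end (100%), with LNCaP peaks in blue above and PC3 peaks in red below, bars for peak length, black ticks for listed start sites and pale lines at the borders of the 3 parts. FOXP1 has its peak centred at 25.05%, downstream of 2 start sites and upstream of 4, and the ZFHX3 peaks of PC3 gather at the far right.

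Related genes outside the 34 were counted in 5 lists of the same pathways. These lists too were made with earlier results of these data known, so shares above background are descriptions only. Of 24 further coregulator genes, 4 held a LNCaP peak (16.7%) and 5 a PC3 peak (20.8%), and 2 held one in both (8.33%). Over all protein-coding genes these shares were 5.62%, 1.83% and 1.16%. At or under the PC3 limit of p, 2 held a LNCaP peak (against 1.33% of protein-coding genes) and 5 a PC3 peak. The highest LNCaP folds were 11.0 on SMARCA4 and 10.3 on ARID1A, subunits of chromatin remodelling complexes, and 5.14 on GATA2, a zinc finger transcription factor. In PC3 the highest folds of this list were 120.5 on EP300, 20.1 on CREBBP, both histone acetyltransferases, and 19.2 on ARID1A. The EP300 value belongs to 1 peak of 51 bp, and the median fold was 9.95 over its 3 peaks and 14.7 over the 11 of CREBBP.

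Of 21 further androgen-regulated genes, 4 held a LNCaP peak (19%, against 5.62%) and 0 a PC3 peak (against 1.83%). The highest folds were 7.53 on PMEPA1, 6.93 on HERC3 and 5.54 on SLC45A3. PMEPA1 alone had a peak at or under the PC3 limit of p, so 1 of 21 against 0 of 21 remained at equal p. Beside backgrounds of 1.33% and 1.83%, these counts are too small to order the lines. Of 27 other recurrently altered genes, 4 held a LNCaP peak (14.8%, against 5.62%) and 2 a PC3 peak (7.41%, against 1.83%), with KMT2D in both. At equal p, 1 gene was left in LNCaP and 2 in PC3, beside backgrounds of 1.33% and 1.83%. Counts this small give no order of the lines. KMT2D had highest folds of 22.8 and 139.4 and median folds of 7.50 and 9.72 in LNCaP and PC3. KMT2C (highest fold 17.6) and SETD2 (4.89) followed in LNCaP and ASXL1 (9.82) in PC3. Of 17 other Wnt genes, the beta-catenin cofactor BCL9L alone (5.88%) held peaks in either list, also at equal p. In LNCaP this share is near the background of 5.62%, and in PC3 (background 1.83%) it rests on 1 gene. The highest folds of BCL9L were 9.64 in LNCaP and 10.6 in PC3. Of 14 partners and substrates of SPOP and CUL3, 3 held a LNCaP peak (21.4%, against 5.62%), BRD3 (13.9), BRD2 (11.3) and SETD2. BRD3 (5.65) held one in PC3 (7.14%, against 1.83%). At equal p, 0 genes were left in LNCaP and 1 in PC3, again too few to order the lines. Of 7 luminal markers, KRT8, KRT18 and FOLH1 held a peak in LNCaP and 0 in PC3, and 0 of 3 mesenchymal markers did in either list. The backgrounds were again 5.62% and 1.83%, and these counts say nothing of the markers' expression.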

How the data were processed

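METTL3 IP and input libraries of LNCaP and PC3 came from a kit that keeps strand, per the labels' protocols. The submitters' processing notes name fastp, STAR 2.5.3a, bedtools, deepTools and build hg38. The peak caller, its filters and the handling of replicates are not given in the sources used here. The authors deposited 1 peak list per line. The fold is a linear ratio, per the file headers, with no denominator named. For every peak, the deposited p-values adjusted by Benjamini-Hochberg within each list gave the deposited FDR, and the negative log2 of that FDR gave the deposited score. The FDR therefore adjusts over the listed peaks only. Its largest value equals the largest p of each list, 0.0178 in LNCaP and 1.59e-05 in PC3.

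Peaks were matched by coordinates to RefSeq gene spans of GRCh38.p14 with pandas 2.3.3, and strand and start sites came from a RefSeq promoter table that held 26 of the 34 genes. The assignment was tested on simulated peaks. Medians carry order-statistic binomial intervals at 95% or more. No test was run, since no values per sample were used. All 34 genes are named, and genes of the other lists by the 3 largest folds per list and line; peaks beside FOXA1 and NCOA3, and the pseudogenes were picked after their values were seen. Some genes of the other lists are not reported here. The genes, lists and rules were chosen with earlier results of these data known.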

Additional observations from a re-analysis of the deposited data

How the results depend on the processing

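No paired analysis was possible because the lists hold no values per replicate, which also kept any replicate from being left out. Of 56 alternative values, 46 stayed within 1.5 times a count or within the interval of a median. For 11 of them no other outcome was possible: 7 apply a limit that every PC3 peak already meets, and 4 set the PC3 median fold against an interval that is the full range of its 8 peaks. The LNCaP number of 7 genes became 4 at the largest PC3 p, 4 at a fold of at least 4 and 0 at a p of at most 1e-10, where PC3 had 1. Only GRHL2 and NCOR1 passed both the PC3 limit of p and a fold of 4 at one peak. Requiring the listed strand of the gene left 3 LNCaP genes and 5 LNCaP peaks, because 4 genes with a peak have no strand in the table. The 12 LNCaP peaks became 4 at the largest PC3 p. In the last part of the span, the LNCaP count of 9 of 12 became 2 of 4 at that p and 5 of 7 with 1 peak per gene, and the PC3 count of 6 of 8 became 1 of 2 with 1 peak per gene. The PC3 median fold was 8.72 without ZFHX3. The alternatives at p of at most 1e-10, without pseudogene-covered peaks, without 1 gene, with 1 peak per gene and from the nearest start site were chosen after seeing the data. Depth is unknown, and whether it limits the PC3 count was not tested.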

Other observations

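On these genes the small p-values of LNCaP were on peaks with a long genomic span. The 4 LNCaP peaks that met the PC3 limit of p were between 11259 and 134357 bp long, against a median of 2304 bp for all LNCaP peaks under that limit and 924.5 bp for the whole list. In PC3 the 4 ZFHX3 peaks and the 2 short NCOR1 peaks, of 51 to 251 bp, had the 6 highest folds, and the smallest p was on the NCOR1 peak of 17979 bp. Peaks of 1 gene share a transcript, so these are descriptions of a few genes.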
